A study of Salmo salar with 12 samples.

Results

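Liver chromatin accessibility at the last sampling of a photoperiod experiment (T4) was compared with that immediately before the long-light regime began (T1), using 3 ATAC-seq libraries at each of these time points. Of 94780 consensus peaks, 94355 were tested because their CPM (a peak's share of a library's counts, put on a common scale) exceeded 1 in at least 2 of the 6 libraries, and the other 425 were not tested. The question was which peaks differed from T1 in all 3 T4 libraries and which did so only in T4 replicates 1 and 2. All fish were female Atlantic salmon from 1 broodstock population, about 3 years old and kept in tanks under 1 management regime, and the labels name no treatment other than light. T1 fish had not yet received long light, whereas T4 fish had, and T4 was the last of 3 samplings made at 2-week intervals. No group held on the earlier light regime was analysed here, so the effect of light cannot be told apart from the passing of time. Each library was made from snap-frozen liver and carried a biological replicate number, and the study describes its biological replicates as individual fish.

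In ATAC-seq the transposase Tn5 cuts DNA that is not wrapped tightly in nucleosomes and tags it with adapters, so reads accumulate at active promoters, enhancers and other regulatory elements. The liver of a maturing female fish responds to ovarian estrogen by producing vitellogenin, the yolk precursor, and eggshell proteins, and it also supplies lipid and energy for egg growth. Bulk liver mixes hepatocytes with blood, endothelial, bile duct and immune cells, and a peak that is lower in bulk tissue can reflect fewer cells of a type or less open chromatin per cell, which cannot be told apart here. The peaks carried numbers without positions or gene names in the table used here, so no liver marker could be checked and peaks are named by number. Their widths were not known either, and the CPM of a peak therefore also carries its width.

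In the main test, no peak was a differentially accessible region (DAR, adjusted p under 0.05 and a log2 fold change, log2FC, beyond 1 in either direction) between T4 and T1 across all 6 libraries. The study itself reported DARs for T4 against T1, using edgeR at these thresholds. Here the exact test of edgeR called 140 peaks, as described below. The edgeR quasi-likelihood test called 0 of 94355 peaks (0%), its smallest adjusted p was 0.389, and 11441 peaks had an unadjusted p under 0.05. Counts were also simulated independently for each library, with the scatter fitted for each peak. There the test recovered 2.99% of changes of log2 size 1.5, 22.4% of those of size 2 and 63.6% of those of size 3. Of its 65 calls, 6 were false. The simulation gave all libraries the same scatter at a peak, unlike the real T4 libraries, so these shares need not hold for the real test. Many changes were missed even there, so a count of 0 does not show that peaks were unchanged. The 3 T4 libraries departed from T1 to different degrees. In T4 replicate 3 the median peak departed from the T1 mean by 0.29 on the log2 scale, against 0.57 in replicate 1 and 0.71 in replicate 2. T4 replicate 3 lay inside the range of the 3 T1 libraries at 50.5% of tested peaks, replicate 1 at 28.0% and replicate 2 at 22.6%. More than 2-fold differences from the T1 mean numbered 2405 upward and 2842 downward in replicate 3, compared with 12125 and 10488 in replicate 1 and 17335 and 15036 in replicate 2. In rank order over peaks, T4 replicate 3 had Spearman coefficients of 0.897 to 0.926 with the T1 libraries, replicate 1 had 0.750 to 0.784 and replicate 2 had 0.596 to 0.692. These describe peaks, which are not independent replicates.

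Depth differed as well. T4 replicate 2 was the shallowest of all 12 libraries with 4199681 counts in peaks, and its median tested peak held 31 counts. T4 replicates 1 and 3 held 11568806 and 25088154 counts, and the T1 libraries held 11796690, 21349942 and 31312069. With every library thinned to the lowest total, the quasi-likelihood test again called no peak. Since it had called none at full depth, this cannot show whether depth mattered.

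A peak was taken as beyond T1 in a T4 library when its CPM, with library sizes scaled by TMM (trimmed mean of M-values), lay outside the range of the 3 T1 libraries. In all 3 T4 libraries, 5750 peaks were above every T1 library (6.09% of tested peaks) and 7413 were below every T1 library (7.86%). If the 6 libraries were exchangeable, ordering alone would place a share of 0.1 of peaks in these sets together. The counts are therefore a description and not a test. The larger pattern was that of T4 replicates 1 and 2 without replicate 3, with 15368 peaks above T1 (16.3%) and 15916 below (16.9%). Peaks beyond T1 in replicates 1 and 3 only numbered 3337 above (3.54%) and 3155 below (3.34%). Those in replicates 2 and 3 only numbered 2970 (3.15%) and 2906 (3.08%). For each of these patterns of 2 T4 libraries, ordering alone would likewise give a share of 0.1 for both sides together. In 5029 peaks (5.33%) all 3 T4 libraries stayed inside the T1 range, a smaller share than ordering alone would give. A log2FC beyond 1 was seen in 2945 of the shared higher peaks (3.12% of tested peaks) and 2344 of the shared lower peaks (2.48%).

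**Figure D1:**
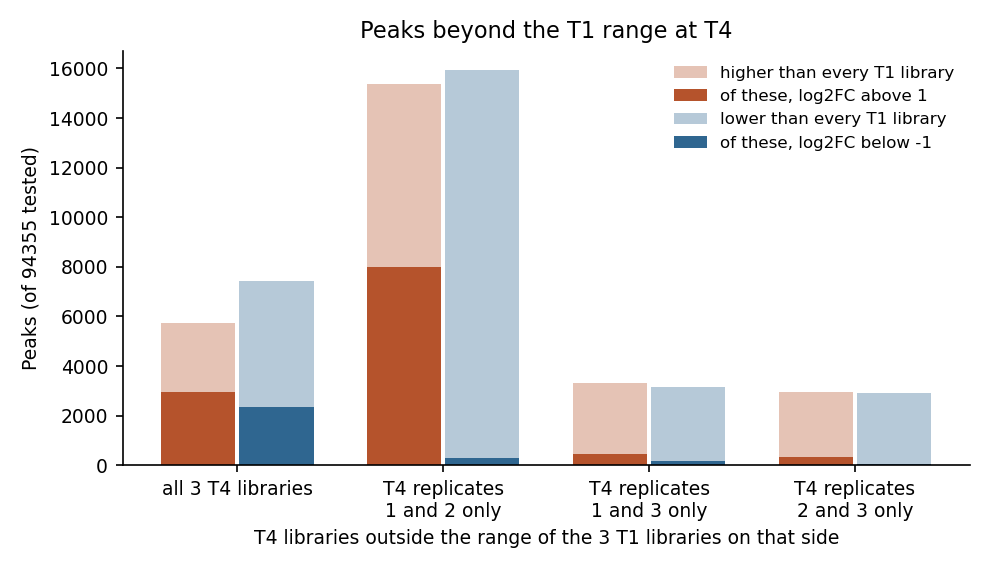
Number of tested peaks outside the range of the 3 T1 libraries in each combination of T4 libraries. Pale bars count all such peaks on the higher (brown) or lower (blue) side and dark bars those with a log2FC above 1 or below -1. The pattern of T4 replicates 1 and 2 only holds 15368 and 15916 peaks, and that of all 3 T4 libraries 5750 and 7413.

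These counts changed when single libraries were left out. Without T1 replicate 1, 13358 peaks were above and 13369 below the remaining T1 libraries in every T4 library. Without T1 replicate 2 these counts were 7740 and 10523, and without T1 replicate 3 they were 8567 and 8352. A range over fewer libraries is narrower in each of these cases. Why the counts were largest without T1 replicate 1 was not tested. Requiring only T4 replicates 1 and 2 gave 21118 and 23318 peaks, and leaving out T4 replicate 2 gave 8922 above. Scaling mattered most for the pattern of replicates 1 and 2 only. With TMM, 49.1% of those peaks were on the higher side, against 63.1% with library totals alone and 9.58% with uniquely mapped reads as library sizes. The last scaling moved the median log2FC of all tested peaks from 0.06 to -0.45, and totals alone moved it to 0.16. It left 2103 higher and 2804 lower shared peaks, of which 1295 and 2206 had a log2FC beyond 1. With loess offsets these last counts were 2451 and 2799, so the balance between shared higher and lower peaks of this size turned with the scaling.

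Shared higher peaks held few counts at T1. Across the 5750 peaks the median log2FC was 1.02, and the median CPM ranged from 2.29 to 2.64 in the T1 libraries and from 4.08 to 6.01 in the T4 libraries. T4 replicate 3 had the smallest departure here too, with a median log2 ratio to the T1 mean of 0.52 against 0.74 and 0.95 in replicates 1 and 2. The peak with the smallest p was peak98942, nearly closed at T1 with 0, 1 and 1 counts and open at T4 with 28, 12 and 308 counts. It held 78 to 112 counts in the T2 libraries and 31 to 133 in the T3 libraries, so every later library exceeded every T1 library. From the pooled counts its CPM at T4 was 268 times that at T1, with a 95% interval of 73.6 to 2221 that covers counting error only and ignores PCR duplication that remained. Its fitted log2FC of 7.29 ± 1.02 (SE) depends on the prior count. By the quasi-likelihood test its adjusted p was 0.389, the same value that all shared peaks named here received.

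The next peak in order of p was peak24732, with 4.71, 4.58 and 2.58 CPM at T1 and 22.4, 21.6 and 25.4 CPM at T4. Its groups were far apart and its T4 libraries close together, and its log2FC was 2.56 ± 0.36 (SE). Peak99991 had 0.65, 1.24 and 0.31 CPM at T1 and 6.72, 13.6 and 20.5 CPM at T4, with a log2FC of 4.24 ± 0.60. This peak was at 0.69 to 0.83 CPM in all 3 T2 libraries, at 28.2 and 14.0 CPM in T3 replicates 2 and 3, and at 0.32 CPM in T3 replicate 1. Against T2 its log2FC at T4 was 4.16, with an unadjusted p of 7.58e-06 and an adjusted p of 0.541 in the quasi-likelihood test of T4 against T2, so it did not pass that test either. Peak65041 had 1.87, 1.60 and 2.95 CPM at T1 and 18.2, 18.3 and 63.1 CPM at T4. Here T4 replicate 3 was the highest library, and the log2FC was 3.95 ± 0.57. The remaining peaks of smallest p were peak11710, with 0.75 to 2.60 CPM at T1 and 11.3 to 22.7 CPM at T4, and peak11713, with 0.75 to 1.95 CPM at T1 and 8.55 to 9.35 CPM at T4. A far less even case was peak23813, named for its large log2FC of 4.64 ± 1.43. It held 36, 0 and 0 counts at T1 and 44, 257 and 240 at T4, and T3 replicate 3 also held 0, so its fold rests on which libraries have any signal.

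The 7413 shared lower peaks had a median log2FC of -0.84, and their median CPM was 10.1 to 10.6 in the T1 libraries and 4.59 to 7.04 in the T4 libraries. The smallest p of all tested peaks belonged to peak55987, with T1 counts of 561, 707 and 1021 and T4 counts of 18, 21 and 105. In CPM these were 45.6, 36.4 and 34.6 against 1.57, 4.09 and 4.53, groups that were far apart, and the log2FC was -3.51 ± 0.45 with an unadjusted p of 8.40e-06. Peak55986, the peak numbered just before it, had 8.37, 8.70 and 10.1 CPM at T1 and 1.48, 1.75 and 1.60 CPM at T4, with a log2FC of -2.50 ± 0.37. At both peaks T2 replicates 1 and 2 were also low, at 3.55 and 4.59 CPM for peak55987, while T2 replicate 3 was at the T1 level with 45.4 CPM.

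Peak75921 and peak87193 were low in every later library. Peak75921 had 16.8, 11.8 and 9.46 CPM at T1, 2.01, 2.34 and 2.68 CPM at T4, and 1.82 to 4.74 CPM across T2 and T3. Peak87193 had 9.02, 8.70 and 9.19 CPM at T1, a spread of 0.25 (SD, n = 3), and 0.87, 2.14 and 1.42 CPM at T4, with 0.62 to 1.61 CPM across T2 and T3. Their log2FC values at T4 were -2.43 ± 0.38 and -2.65 ± 0.43. At peak25031 the T2 libraries lay between T1 and T4. Its mean CPM was 26.1 ± 0.87 (SD, n = 3) at T1 and 5.26 ± 2.11 at T4, with 11.2 to 18.5 CPM in the T2 libraries. Peak74532 had 43.4, 64.5 and 46.4 CPM at T1 and 9.77, 7.60 and 13.0 CPM at T4. Its T2 replicates 1 and 2 were at 20.2 and 22.1 CPM, while T2 replicate 3 was within the T1 range at 44.3 CPM. The 2 shared lower peaks with the largest log2FC were close to the counting floor at T4. Peak63108 held no counts in any T4 library, but T1 replicate 2 held only 1 count beside 111 and 288 in the other T1 libraries. Peak64405 held 11, 37 and 46 counts at T1 and 1, 0 and 2 at T4. Its pooled CPM at T1 was 20.4 times that at T4, with a 95% interval of 6.75 to 100.5 from counting error. No peak was absent (3 counts or fewer) in all libraries of 1 time point and held at least 20 counts in all libraries of the other.

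**Figure D2:**
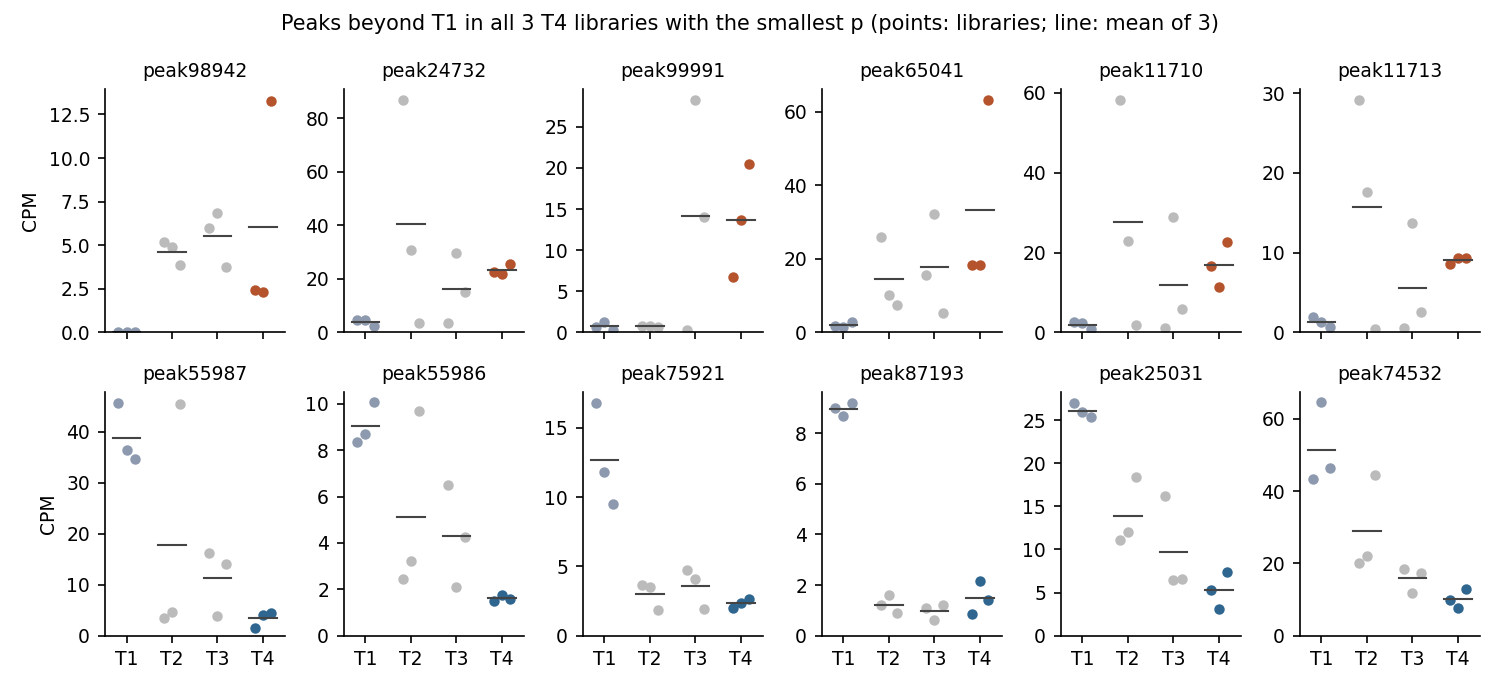
CPM of the 6 shared higher peaks (upper row) and the 6 shared lower peaks (lower row) with the smallest p, in all 12 libraries. Points are libraries in the order of replicates 1 to 3, short lines are means of 3, and each panel has its own linear axis from 0. No T4 point overlaps the T1 points, as the choice of these peaks requires, while T2 and T3 often span both levels.

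Some shared changes came in runs of consecutively numbered peaks, and so did changes of T4 replicates 1 and 2 only. These runs were looked for after the values were seen, and the numbering was not checked against genome positions. Among shared higher peaks with a log2FC above 1, 10.5% were followed by the next-numbered peak in the same set, which held 3.12% of tested peaks, and the corresponding values on the lower side were 9.97% and 2.48%. Without a limit on log2FC, the values for shared peaks were 12.0% and 6.09% on the higher side and 17.8% and 7.86% on the lower. For peaks of T4 replicates 1 and 2 only they were 28.7% and 16.3%, and 29.7% and 16.9%. The longest run of that pattern also covered 12 peaks, so runs were not particular to shared changes. Among shared higher peaks with a log2FC above 1, the longest run covered the 12 peaks from peak11710 to peak11721, with log2FC values between 1.37 and 3.21. Their mean CPM was 4.72, 2.71 and 1.42 in the T1 libraries and 10.3, 13.5 and 12.0 in the T4 libraries. The second covered 10 peaks, peak101058 to peak101067, at 7.81, 7.27 and 3.82 CPM in T1 and 31.4, 20.0 and 43.7 CPM in T4. Another ran over 9 peaks from peak24724 to peak24732, and 5 more followed from peak24734 to peak24738. In all 4 of these runs T2 replicates 1 and 2 and T3 replicates 2 and 3 were above every T1 library. T2 replicate 3 and T3 replicate 1 lay within or near the T1 range. For the second run, T2 replicate 1 reached 114 CPM and T2 replicate 2 61.9 CPM, against 5.19 CPM in T2 replicate 3. For T3 the values were 3.73, 31.3 and 11.9 CPM. The longest lower run covered 6 peaks from peak41466 to peak41471, with 12.0, 14.4 and 14.7 CPM in T1 and 4.48, 2.84 and 7.79 CPM in T4. T2 replicate 3 (13.7 CPM) and T3 replicate 1 (12.3 CPM) were again at the T1 level there, and the other T2 and T3 libraries were at 4.83 to 5.92 CPM. Which cells or chromosome regions these runs belong to was not tested.

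Tests that model the counts differently called some peaks, and their calls divided differently between shared changes and those of T4 replicates 1 and 2 only. The edgeR exact test called 140 peaks (0.148%), 70 higher and 70 lower, of which 69 were above T1 and 66 below T1 in all 3 T4 libraries and 1 in replicates 1 and 2 only. DESeq2 called 305 of 85155 peaks that received an adjusted p (0.358%), with 198 higher and 107 lower, 291 of them shared by all 3 T4 libraries and 12 found in replicates 1 and 2 only. Both tools called 129 peaks, 66 higher and 63 lower, and each of these was beyond T1 in all 3 T4 libraries on its side. A large scatter within T4 raises p, so such a composition follows in part from the tests themselves. limma voom with sample quality weights, which lets a library count for less, gave T4 replicate 3 a weight of 0.221 against 1.04 and 0.953 for the other T4 libraries. It called 3414 peaks (3.62%), 1602 of them shared and 1806 beyond T1 in replicates 1 and 2 only.

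The shared changes were set beside T2 and T3, which used the same T1 libraries as reference, so agreement in sign with T4 is no separate evidence. Shared higher peaks had a median log2FC of 0.47 at T2 and 0.44 at T3 against 1.02 at T4. For shared lower peaks these medians were -0.40 and -0.37 against -0.84. Over all tested peaks the medians were -0.0027 at T2, 0.02 at T3 and 0.06 at T4. Among the 66 higher peaks called by both the exact test and DESeq2, the median log2FC was 2.48 at T4, beside 2.41 at T2 and 1.58 at T3, and 12 peaks were above T1 in all 9 later libraries, against 0.715% of all tested peaks. Among the 63 lower ones the medians were -1.94, -1.10 and -1.20 in that order, and 40 peaks were below T1 in all 9 later libraries, against 1.66% of all tested peaks. All T4 libraries were above all T2 libraries at 10 of the 66 higher peaks (15.2%, against 5.92% of all tested peaks), and below all T2 libraries at 23 of the 63 lower peaks (36.5%, against 5.86%). The choice of these peaks by their T4 and T1 values favours such separation, so these shares carry no test. Among shared peaks with a log2FC beyond 1, 11.9% of the higher and 33.8% of the lower were beyond T1 in all 9 later libraries. All T4 libraries were beyond all T2 libraries at 23.5% and 22.8% of them. The libraries of T2 and T3 did not move together at the 66 higher peaks. T2 replicate 3 was above the T1 range at 42.4% of them and T3 replicate 1 at 31.8%, compared with 81.8% to 93.9% in the other T2 and T3 libraries. Of all tested peaks, 24.3% and 24.8% were so placed in T2 replicate 3 and T3 replicate 1, and 25.2% to 29.9% in the others. At the 63 lower peaks each T2 and T3 library was below the T1 range at 77.8% or more of the peaks.

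**Figure D3:**
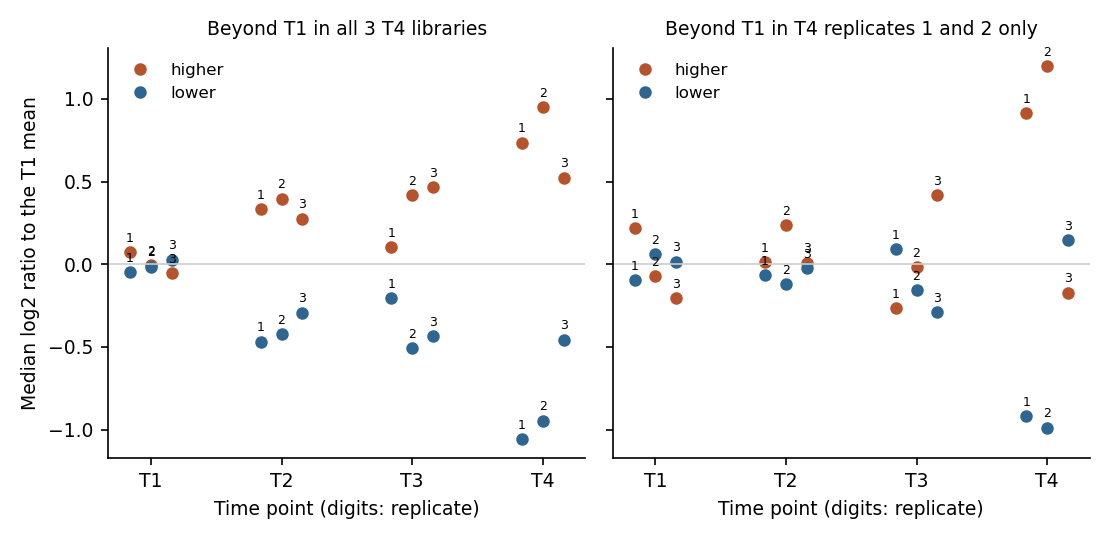
Median log2 ratio to the T1 mean in each of the 12 libraries, for peaks beyond T1 in all 3 T4 libraries (left) and in T4 replicates 1 and 2 only (right). Brown points are the higher and blue points the lower peaks, and digits give the replicate. On the left most T2 and T3 medians lie between those of T1 and T4, with T4 replicate 3 nearest to them, and on the right T4 replicates 1 and 2 stand apart from the other 10 libraries. The choice of these peaks requires the T4 libraries to be so placed against T1, but it did not use T2 or T3.

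Peaks beyond T1 in T4 replicates 1 and 2 only had another profile. Its T4 values follow in part from how the peaks were chosen, which did not use T2 or T3. The 15368 higher peaks had median log2 ratios to the T1 mean of 0.91 and 1.20 in T4 replicates 1 and 2 and -0.17 in T4 replicate 3. Their median log2FC was 0.16 at T2 and 0.13 at T3. T3 replicate 3 was the closest of the other libraries, with a median ratio of 0.42. It held 7476523 counts in peaks, fewer than any other library except T4 replicate 2, and whether depth played a part was not tested. The 15916 lower peaks had median ratios of -0.92 and -0.99 in replicates 1 and 2 and 0.15 in replicate 3, with median log2FC values of -0.07 at T2 and -0.10 at T3. In 4815 of the higher peaks T4 replicate 3 lay below every T1 library, and in the other 10553 it lay inside the T1 range. In 6961 of the lower peaks T4 replicate 3 lay above every T1 library, and in the other 8955 it lay inside. Over all 94355 tested peaks it lay below every T1 library at 23074, above at 23602 and inside at 47679. The choice of the peaks excludes the same side for replicate 3, and whether its placement there differs from that at all tested peaks was not tested. The higher and lower peaks also differed in how accessible they were at T2 and T3, which the grouping did not use. Of the higher peaks 80.9% fell in the less accessible levels 1 to 5 of 10 equal groups, and of the lower peaks 26.0% fell in level 10, the most accessible.

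The peak with the smallest p on the higher side, in the fit without T4 replicate 3, was peak33050. It held 164 and 42 counts in T4 replicates 1 and 2, none in T4 replicate 3 and at most 2 in every library of T1, T2 and T3. The pooled T1 count was 1. More than 2 counts were thus found in 2 of the 12 libraries. Peak13297 had 5.28, 4.84 and 4.24 CPM at T1, and 26.8, 29.8 and 5.14 CPM at T4, so replicate 3 matched T1. Without replicate 3 its log2FC was 2.57 ± 0.27, and with all libraries it was 2.09 ± 0.56. The 12 peaks named for this pattern each had an adjusted p of 0.0208 in the quasi-likelihood test without T4 replicate 3, given as a description because the peaks were chosen by that test. Calls at 11 of them were lost there with uniquely mapped reads, at 12 without T1 replicate 2 and at 11 without T1 replicate 3. Peak68188 (19.1, 31.6 and 3.24 CPM at T4) and peak18645 (18.2, 26.9 and 2.93 CPM) showed the same division, both with T1 libraries between 2.48 and 3.65 CPM. At peak69662 and peak65894 T4 replicate 3 was the lowest of the 6 libraries, with 1.90 and 2.93 CPM, while replicates 1 and 2 were at 17.6 to 20.9 CPM.

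On the lower side peak93940 had 44.8, 56.5 and 39.8 CPM at T1 and 8.64, 9.35 and 55.4 CPM at T4. Its log2FC was -2.39 ± 0.34 without T4 replicate 3 and -0.93 ± 0.64 with all libraries. Peak74794, peak80823 and peak50706 followed the same pattern. T4 replicates 1 and 2 were at 1.92 to 5.26 CPM and replicate 3 at 11.7 to 21.5 CPM, inside the T1 range of each peak. Some T2 and T3 libraries also lay below the T1 range at these peaks. At peak74794 they ranged from 4.50 to 29.5 CPM, against 19.9 to 26.4 CPM at T1. Those ranges were 9.66 to 18.5 and 13.5 to 18.7 CPM at peak80823, and 6.82 to 9.74 and 9.58 to 13.5 CPM at peak50706. Peak39545 was divided differently. Its T1 libraries were at 19.7, 19.6 and 16.7 CPM, T4 replicates 1 and 2 at 4.36 and 4.68 CPM and T4 replicate 3 at 34.9 CPM. All T2 and T3 libraries were at 3.73 to 7.79 CPM, so at this peak it was T4 replicate 3 and T1 that stood apart. Peak28935 had 44.8 to 56.9 CPM at T1 and 9.59, 12.1 and 58.4 CPM at T4.

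Leaving T4 replicate 3 out changed the outcome of the test more than any other single library did. The quasi-likelihood test then called 13433 of 94261 peaks (14.3%), 6805 higher (7.22%) and 6628 lower (7.03%). No other fit that left out 1 library called a peak. Of these DARs, 3911 (29.1%) were beyond T1 in all 3 T4 libraries and 9501 (70.7%) in replicates 1 and 2 only. Among all 44447 tested peaks beyond T1 on 1 side in replicates 1 and 2, the shared part was 29.6%, close to the share among the DARs. T4 replicate 3 had no part in these calls, and its medians at both groups of DARs lay close to that at all tested peaks. Its median log2 ratio to the T1 mean was -0.09 at the higher DARs and -0.08 at the lower DARs, against -0.05 at all tested peaks, whereas replicates 1 and 2, which did make the calls, were at 1.68 and 1.73 and at -1.24 and -1.47. T4 replicate 3 was above the T1 mean at 42.0% of the higher DARs, 41.6% of the lower DARs and 45.4% of all tested peaks.

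**Figure D4:**
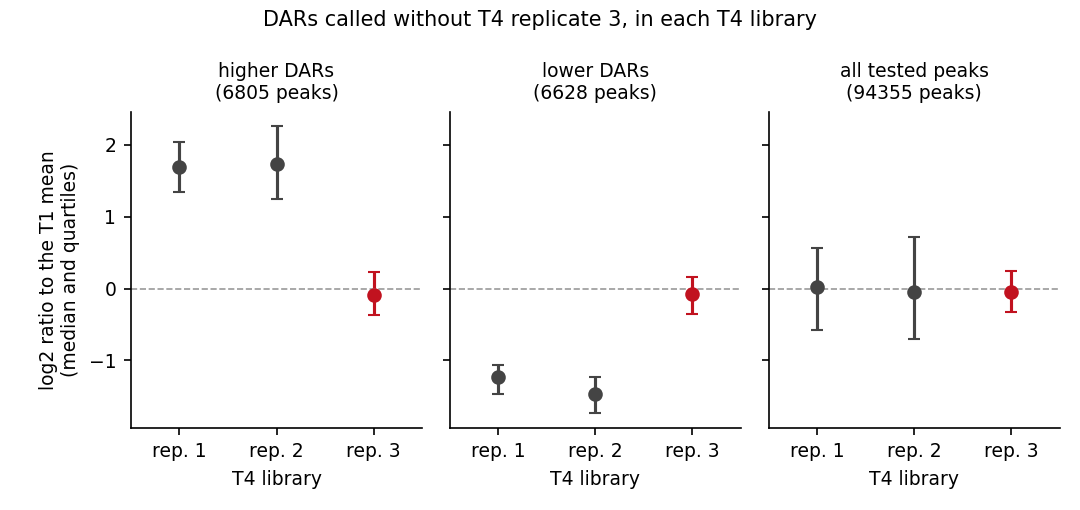
Log2 ratio to the T1 mean in each T4 library at the 6805 higher and 6628 lower DARs called without T4 replicate 3 and at all 94355 tested peaks. Points are medians over peaks, bars run from the lower to the upper quartile, and red marks the library left out of the calls. Replicates 1 and 2 made the calls and lie far from 0, while replicate 3 has medians of -0.09, -0.08 and -0.05.

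These 13433 calls in turn depended on T1 and on the scaling. Without T4 replicate 3 and T1 replicate 2 the quasi-likelihood test called 0 peaks (21012 had an unadjusted p under 0.05), and without T4 replicate 3 and T1 replicate 3 it called 1, whereas without T4 replicate 3 and T1 replicate 1 it called 16296. With uniquely mapped reads as library sizes it called 37, of which 18.9% were higher, against 50.7% of the 13433. With loess offsets, which remove a trend of the fold change with the level, 9292 peaks were called and 7309 of these were among the 13433. DESeq2 and the exact test called 18339 and 19135 peaks without T4 replicate 3.

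The change at T4 also varied with how accessible a peak was. Peaks were divided into 10 equal groups, level 1 (lowest) to level 10 (highest), by their mean log2(CPM + 1) over the 6 libraries of T2 and T3, which had no part in the comparison. The median log2FC declined from 0.94 in level 1 to -0.27 in level 10. T4 replicate 2 carried most of this, with a median log2 ratio to the T1 mean of 1.20 in level 1 and -0.97 in level 10. T4 replicate 1 went from 0.47 to -0.31, close to T1 replicate 1, which went from 0.39 to -0.26. T4 replicate 3 went the other way, from -0.23 to 0.06. Peaks above T1 in T4 replicates 1 and 2 only made up 36.2% of level 1 and 0.477% of level 10, and those below T1 made up 1.19% and 43.9%. The shared peaks were spread more evenly. Shared higher peaks made up 8.02% of level 1 and 0.678% of level 10, and shared lower peaks went from 3.30% in level 1 through 12.6% in level 7 to 6.70% in level 10.

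**Figure D5:**
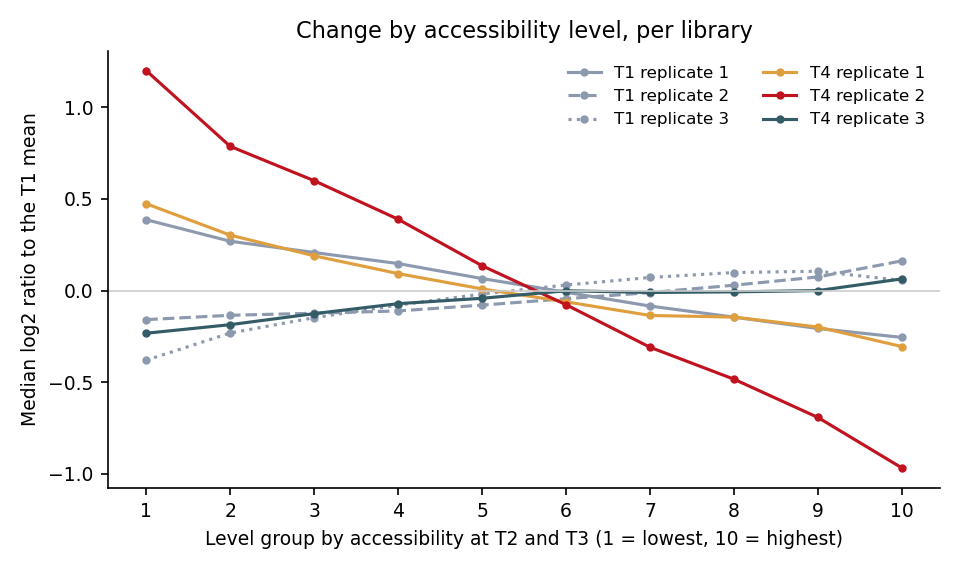
Median log2 ratio to the T1 mean by accessibility level at T2 and T3 (1 lowest, 10 highest), for each T1 library (grey) and each T4 library (colours). T4 replicate 2 falls from 1.20 to -0.97, T4 replicate 1 runs close to T1 replicate 1, and T4 replicate 3 stays between -0.23 and 0.06.

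Without T4 replicate 2 the median log2FC of level 1 was 0.29 and that of level 10 was -0.04. For level 10 it was -0.57 without T4 replicate 3, -0.41 without T1 replicate 1 and -0.18 without T1 replicate 2. The share of counts in the peaks of level 10 was 37.6%, 27.6% and 44.2% in T4 replicates 1 to 3 and 39.2%, 45.7% and 42.6% in the T1 libraries. Its mean was 36.5% ± 8.34 (SD, n = 3) at T4 and 42.5% ± 3.24 (SD, n = 3) at T1. The difference of -6.05 percentage points was not unusual among relabellings of the libraries (two-sided exact permutation test, p = 0.3). In that test 0.1 is the smallest value that 3 against 3 libraries allow. Without T4 replicate 2 the difference was -1.62 points, and without T4 replicate 3 it was -9.90 points. The 2 tested peaks of the highest mean CPM at T2 and T3 were peak76788, with 122 to 190 CPM at T1 and 161, 113 and 297 CPM at T4, and peak23056, with 225 to 330 CPM at T1 and 139, 85.7 and 326 CPM at T4. The groups overlapped at both, and the log2FC values were 0.38 ± 0.52 and -0.60 ± 0.59.

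Compared with the other samplings after long light began, T4 again gave no DAR. The quasi-likelihood test of T4 against T2 called 0 of 93857 peaks (0%) with 8238 at an unadjusted p under 0.05, while DESeq2 called 80, the exact test 22 and limma voom with sample quality weights 0. Against T3 it called 0 of 94313 peaks (0%) with 5205 at an unadjusted p under 0.05, and DESeq2 called 4, the exact test 2 and limma voom 0. Without T4 replicate 3, 15164 peaks were called against T2 but 2 against T3. These comparisons share the T4 libraries with that against T1. Of the 5750 shared higher peaks, 1406 had all T4 libraries above all T2 libraries, 1109 above all T3 libraries and 460 above all 9 earlier libraries. Of all tested peaks, 5.92%, 3.10% and 0.504% were so placed. For the 7413 shared lower peaks the counts were 1816, 1619 and 740, against 5.86%, 4.38% and 0.834% of all tested peaks. The choice of these peaks by their T4 and T1 values favours such separation, so the counts carry no test.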

How the data were processed

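Liver ATAC-seq libraries of T1 and T4 were compared, with T2 and T3 beside them, 3 libraries at each of 4 time points, grouped by their labels. The authors mapped reads to the ICSASG_v2 assembly with Bowtie2 2.3.5.1, dropped duplicates and reads that were multi-mapped or mitochondrial, ran MACS2 to call peaks, merged across time points those seen in 2 or more replicates, and counted the reads in each merged peak using HTSeq 0.11.1 (versions from the submitters' processing notes). Whether read positions were shifted for Tn5 is not given in the sources used here. The deposited table holds whole-number counts per peak, not normalized. A second deposited table, on a log2 scale, was not used.

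Counts of the 6 libraries were fitted in R 4.3.3 with edgeR 4.0.16 (TMM scaling, glmQLFit and glmQLFTest), and p-values were adjusted over all tested peaks by the Benjamini-Hochberg method. The SE of a log2FC was taken as |log2FC| over the root of the F statistic. Log2 ratios of a library to the T1 mean used CPM with a prior of 0.5. Tables were made in Python 3.11.15 (scipy 1.17.1, numpy 2.4.6, pandas 2.3.3), and the exact permutation test was two-sided. The procedure was tested on simulated counts.

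Named peaks were, in each direction, the 6 of smallest p and the 2 of largest log2FC among peaks beyond T1 in all 3 T4 libraries with a log2FC beyond 1, the 4 of smallest p among those beyond T1 in T4 replicates 1 and 2 with replicate 3 inside the T1 range, the 2 of smallest p with replicate 3 on the opposite side (both in the fit without T4 replicate 3), any peak absent at T1 or at T4, and the 2 most accessible at T2 and T3. The peak groups and this rule were chosen with earlier results of these data known.

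Alternatives were DESeq2 1.42.0, edgeR's exact test, limma 3.58.1 voom with sample quality weights, no TMM, uniquely mapped reads as library sizes (taken from the study's mapping statistics, where the codes of 2 libraries coincide and the description was used), loess offsets (span 0.3), dropping the filter, a filter of 10 or more counts in each of the 6 libraries, a replicate block, a stricter adjusted p of 0.01, thinning, leaving out each library, and 1 fit to the whole series. Combinations with leaving out T4 replicate 3 were added after the data were seen. Peak positions, genes and sequences were not analysed here.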

Additional observations from a re-analysis of the deposited data

How the results depend on the processing

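The count of DARs between T4 and T1 remained 0 with loess offsets, without TMM, without the filter, with at least 10 counts in every library, with all 12 libraries, with thinning and at an adjusted p under 0.01. It was 305 with DESeq2, 140 with the exact test, 3414 with limma voom with sample quality weights and 21 with uniquely mapped reads (2 higher and 19 lower), and it ranged from 0 to 13433 when each library was left out. Without T4 replicate 3 it was 37 with uniquely mapped reads, 0 when T1 replicate 2 was also left out and 1 when T1 replicate 3 was. The causes were not tested. Replicate numbers were not treated as pairs, as the fish were sacrificed at each sampling. Whether same-numbered libraries shared a processing step was not tested. Deviations of same-numbered T1 and T4 libraries from their group means correlated at -0.23, -0.24 and 0.29, and the closest pair was T1 replicate 1 with T4 replicate 2 at 0.56. A replicate block gave 303 DARs, 1129 without T4 replicate 3, 4 for T4 against T2 and 0 for T4 against T3.

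Uniquely mapped reads gave 2103 shared higher peaks (1295 with a log2FC above 1), 2804 shared lower peaks, and 2997 higher and 28278 lower peaks in T4 replicates 1 and 2 only. Leaving out each library gave 7740 to 21118 shared higher and 8352 to 23318 shared lower peaks, of which 3151 to 13658 and 1991 to 11226 had a log2FC beyond 1. For replicates 1 and 2 only, leaving out each T1 library gave 14321 to 15527 higher and 15970 to 17139 lower peaks. Across fits omitting 1 library each, the median log2FC ranged from 0.29 to 1.34 in accessibility level 1 and from -0.57 to -0.04 in level 10. It was 0.29 and -0.65 with uniquely mapped reads and 0.26 and 0.050 with loess offsets, which remove such a trend. The difference in the share of counts in the peaks of level 10 ranged from -9.90 to -1.62 points. T4 against T2 gave 80 DARs with DESeq2, 22 with the exact test, 39 with uniquely mapped reads and 0 to 15164 when each T4 library was left out, and T4 against T3 gave 4, 2, 11 and 0 to 2. Among named peaks, peak76788 turned its direction, to -0.091 with limma voom and -0.094 without T4 replicate 3, in a range from -0.094 to 0.646 when each library was left out. For peak39545 the log2FC over all 6 libraries was -0.32, and omitting single libraries gave -2.05 to 0.12. In the fit without T4 replicate 3, the 12 peaks named for T4 replicates 1 and 2 only all lost their call without T1 replicate 2, and 11 lost it with uniquely mapped reads, 11 without T1 replicate 3 and 3 with a replicate block.

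Thinning every library to the depth of T4 replicate 2, 4199681 counts, left the count of DARs over all 6 libraries at 0 and gave 10189 without T4 replicate 3.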
